A study of Oryctolagus cuniculus with 4 samples.

Results

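The enzymes of glycolysis and the membrane carriers that bring glucose into the cell were followed in rabbit blastocysts. The set comprised GAPDH, HK1, HK2, PFKM, ALDOA, TPI1, PGK1, LDHA and the glucose transporters SLC2A1 and SLC2A3. It was chosen by gene name, and it was chosen because GAPDH had a lower log2 ratio in these same arrays, so the GAPDH value is a description and not a finding. HK1 matched no probe under its name, and 9 of the 10 genes were therefore measured, by 26 of the 43603 probes of the array. Of those probes, 16 belonged to the 7 enzymes and 10 to the 2 transporters.

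Each of the 4 two-colour arrays carried a pool of parthenote blastocysts labelled with Cy3 and a pool of in vivo fertilised blastocysts labelled with Cy5. All embryos were from New Zealand White rabbits and were recovered at 6 days. Parthenotes came from oocytes activated by electrical pulses, then by cycloheximide and 6-DMAP, and grown in the oviduct and uterus of recipient does. The fertilised embryos, called control in the labels, had neither activation nor transfer, so parthenogenesis, the activation agents and the transfer cannot be told apart. No array had the dyes exchanged, and dye and group cannot be told apart either. In pooled embryos, fewer cells of a type and less RNA per cell cannot be told apart.

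Glycolysis splits glucose into pyruvate in the cytosol. Hexokinases trap glucose as a phosphate, phosphofructokinase commits it to the pathway, aldolase splits the sugar, and the later steps, from GAPDH to pyruvate kinase, yields ATP and NADH. Lactate dehydrogenase turns pyruvate into lactate and returns NAD+. Mammalian embryos rely mostly on pyruvate and lactate during cleavage, and they take up and use more glucose at the blastocyst stage, when glucose transporters lie in the membranes of the trophectoderm and the inner cell mass. GAPDH is also widely used as a reference gene for RT-qPCR. In the study that produced these arrays it served as a reference gene together with H2AFZ, by their geometric average.

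The oligonucleotides that carried the main values were 60 bases long and are given 5′ to 3′ as the array files list them. They are shown because each gene is read only through these letters, and because several genes were read by a ladder of overlapping probes that do not measure independently. The single GAPDH probe began at base 979 of its transcript and lay at chr8:32584296-32584468 in the files' coordinates, a stretch longer than the probe. The PFKM probes began at bases 813 and 1881 and did not overlap. The outermost of 5 LDHA probes, which began at bases 908 and 930, and the outermost of 5 SLC2A3 probes, which began at bases 1041 and 1045, are printed with the stretch common to all 5 in capitals (38 bases for LDHA and 56 bases for SLC2A3).
GAPDH: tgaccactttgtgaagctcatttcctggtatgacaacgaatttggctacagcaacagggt
PFKM, base 1881: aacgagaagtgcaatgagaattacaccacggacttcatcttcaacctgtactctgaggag
PFKM, base 813: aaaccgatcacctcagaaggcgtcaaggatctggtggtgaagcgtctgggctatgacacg
LDHA, base 908: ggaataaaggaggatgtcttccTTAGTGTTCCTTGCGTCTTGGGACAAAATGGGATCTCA
LDHA, base 930: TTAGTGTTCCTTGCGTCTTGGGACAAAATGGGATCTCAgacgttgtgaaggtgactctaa
SLC2A3, base 1041: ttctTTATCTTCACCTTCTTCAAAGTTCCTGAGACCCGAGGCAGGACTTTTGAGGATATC
SLC2A3, base 1045: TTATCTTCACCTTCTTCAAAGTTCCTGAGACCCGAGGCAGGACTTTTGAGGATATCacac

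The brightest LDHA probe lay at chr14:46854618-46854673 and the brightest SLC2A3 probe at chr8:33751731-33751790. The files gave no position for PFKM. The other brightest probes lay at chr2:111664962-111666390 for HK2, chr6:18447966-18448025 for ALDOA, chr8:32893124-32893183 for TPI1, chrX:69867781-69867840 for PGK1 and chr13:123861250-123861310 for SLC2A1. The files do not name the genome build of these positions, and exons and UTRs were not analysed here.

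Values are log2 ratios of parthenote over fertilised signal, so that 0 is no difference, and each is the mean ± SD over the 4 arrays for the brightest probe of a gene. The mean was below 0 for all 7 enzymes and above 0 for both transporters, but the transporters had means below 0 when the background was corrected by normexp and the arrays were centred on their median without loess. The median of the 9 genes was -0.21, of the 7 enzymes -0.32, and of the 6 enzymes besides GAPDH -0.27. The median over all probes tested and over the 9788 named genes was 0.0. Only 3 enzymes, GAPDH, PFKM and LDHA, were lower on all 4 arrays. HK2, ALDOA, TPI1 and PGK1 each had 1 array on which the parthenote pool was the brighter.

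**Figure D1:**
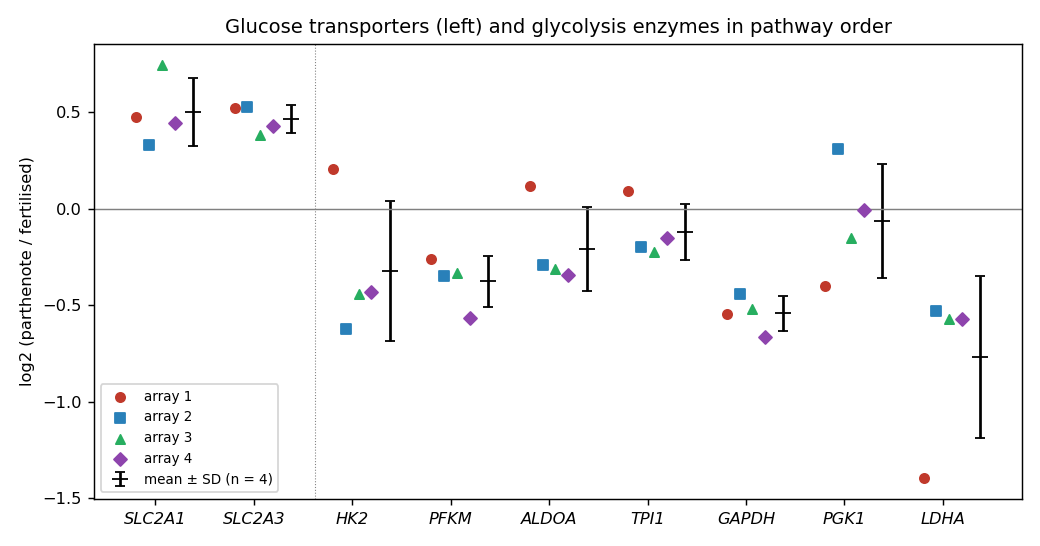
The log2 ratio of parthenote over fertilised signal (vertical axis) is plotted for the brightest probe of each of the 9 genes, with 1 point per array and the mean ± SD (n = 4) beside them. Both transporters lie above 0 on every array (below 0 as means after normexp with median centring), whereas HK2, ALDOA, TPI1 and PGK1 have points on both sides of 0 and LDHA on array 1 lies at -1.40.

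The transporters were read first, since they stand at the entry of the pathway. SLC2A1 encodes GLUT1, the carrier that supplies most cells with basal glucose. Its processed signal was 36770, 32220, 43290 and 36460 in the parthenote pools of arrays 1 to 4, and 26450, 25610, 25790 and 26760 in the fertilised pools. Every parthenote pool lay above every fertilised pool. The log2 ratio was 0.50 ± 0.18 (n = 4), which is 1.41-fold, and the 5 overlapping probes had means of 0.42 to 0.50.

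SLC2A3 encodes GLUT3, a carrier of high affinity. Its signal was 1575, 1433, 1461 and 1357 in the parthenote pools and 1097, 994.3, 1119 and 1008 in the fertilised pools, again without overlap. The log2 ratio was 0.47 ± 0.07 (n = 4), which is 1.38-fold, and the 5 probes had means of 0.44 to 0.50. After normexp with median centring the means of SLC2A1 and SLC2A3 were -0.42 and -0.16. In that setting the 917 probes bright enough for the low-gain scan in both channels had a median of -1.11, and SLC2A1, which is among them, lay 0.69 above it.

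Among the enzymes, hexokinase 2 traps glucose inside the cell. HK2 was dim, with signals of 133.5, 126.9, 187.1 and 134.0 in the parthenote pools and 115.6, 195.7, 254.0 and 181.0 in the fertilised pools. The groups overlapped, because array 1 stood at a log2 ratio of 0.21 and the other arrays between -0.63 and -0.43. The mean was -0.32 ± 0.37 (n = 4), and -0.50 ± 0.11 without array 1. It was -0.22, -0.28 and -0.29 without array 2, 3 and 4.

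PFKM encodes the muscle form of phosphofructokinase, the committed step. Its brightest probe gave 818.2, 742.3, 681.9 and 596.9 in the parthenote pools and 979.3, 944.3, 858.9 and 883.8 in the fertilised pools. The groups did not overlap, and the log2 ratio was -0.38 ± 0.13 (n = 4), which is 1.30-fold lower in parthenotes. The second probe, from another part of the transcript, gave -0.44 ± 0.13 (n = 4) and was also lower on all 4 arrays.

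Aldolase A and triosephosphate isomerase make and interconvert the triose phosphates. ALDOA had signals of 38020, 32160, 30290 and 28320 in the parthenote pools and 35000, 39390, 37630 and 35990 in the fertilised pools. Array 1 was the exception at a log2 ratio of 0.12, against -0.35 to -0.29 on the others. The mean was -0.21 ± 0.22 (n = 4), or -0.32 ± 0.03 without array 1, and -0.18, -0.17 and -0.16 without array 2, 3 and 4. TPI1 followed the same layout at a smaller size, with 0.09 on array 1 and -0.22 to -0.15 on the others. Its mean was -0.12 ± 0.15 (n = 4), its 5 probes had means of -0.13 to -0.10, and both groups overlapped.

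GAPDH oxidises glyceraldehyde 3-phosphate and makes NADH. Its signal was 64650, 70580, 61880 and 54970 in the parthenote pools and 94470, 95910, 88640 and 87110 in the fertilised pools. The groups did not overlap. The log2 ratio was -0.55, -0.44, -0.52 and -0.66 on arrays 1 to 4, with a mean of -0.54 ± 0.09 (n = 4), which is 1.46-fold lower in parthenotes. It was -0.69 after normexp and loess, and -1.74 after normexp and median centring, where it lay 0.64 below the median of the 917 bright probes, as against 0.59 below it on the deposited ratios.

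PGK1, the first ATP-making enzyme of the pathway, was spread around 0. Its signal was 7552, 12240, 8853 and 9063 in the parthenote pools and 9962, 9886, 9831 and 9103 in the fertilised pools. The fertilised pools were close together, and the parthenote pools lay on both sides of them. The log2 ratio was -0.06 ± 0.30 (n = 4), and 0.05 without array 1.

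LDHA, the muscle form subunit of lactate dehydrogenase, had the lowest mean of the set. Its signal was 8162, 13520, 11840 and 10350 in the parthenote pools and 21510, 19500, 17590 and 15400 in the fertilised pools, without overlap. The log2 ratio was -1.40 on array 1 and -0.57 to -0.53 on the others, a mean of -0.77 ± 0.42 (n = 4), or -0.56 ± 0.03 without array 1. The 5 overlapping probes had means of -0.80 to -0.75 and all were lower on all 4 arrays.

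**Figure D2:**
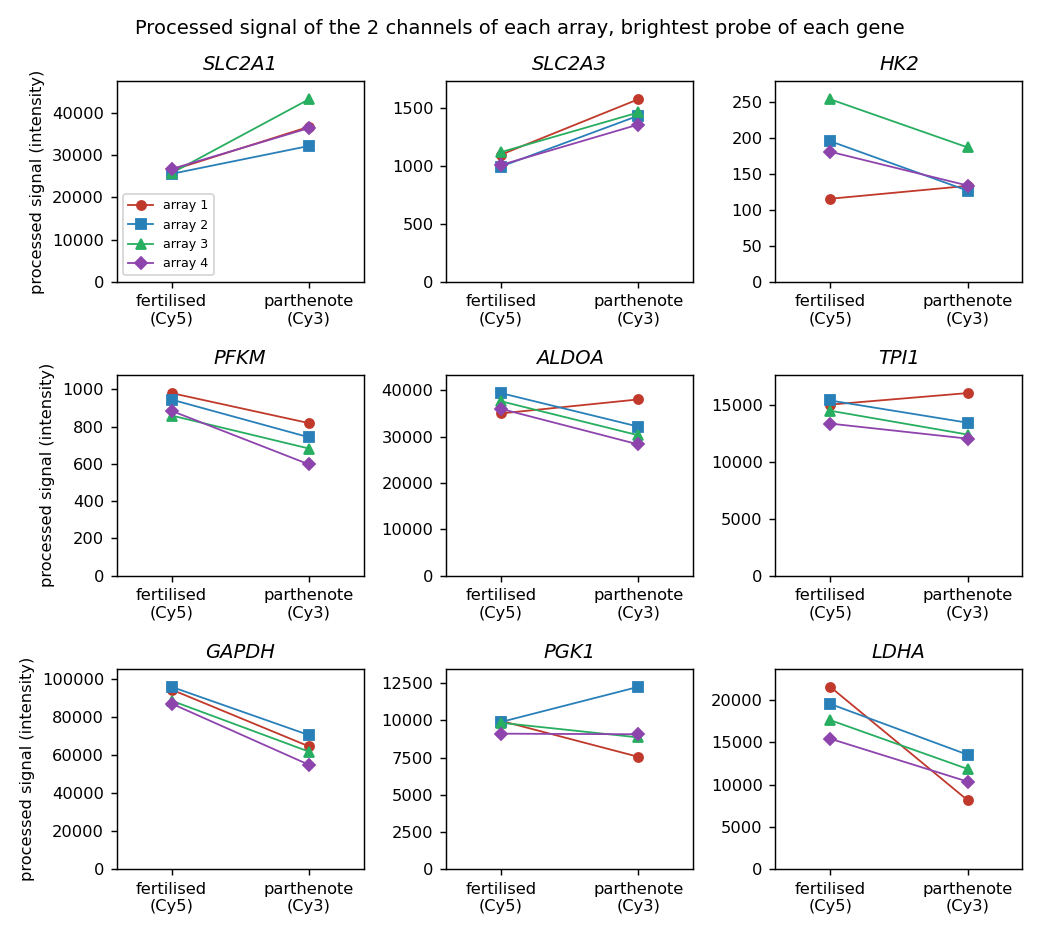
Each panel plots the processed signal (intensity, vertical axis from 0) of 1 gene in the fertilised (Cy5) and parthenote (Cy3) pool of each array, joined by a line per array. The lines rise in SLC2A1 and SLC2A3 and descend in PFKM, GAPDH and LDHA on all 4 arrays, and they run both ways in HK2, ALDOA, TPI1 and PGK1; after normexp with median centring the transporters' means turn below 0.

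Signals of the parthenote and fertilised pools did not overlap for 5 of the 9 genes, beside 32.1% of the 9771 named genes with a signal in every channel. In the limma fit over all probes, 11 of the 26 probes had an adjusted p under 0.05, beside 20.6% of all 43595 probes tested. By brightest probe these were 4 of the 9 genes, beside 24.0% of all named genes. PFKM and GAPDH were on the lower side, where 12.2% of named genes stood, and SLC2A1 and SLC2A3 on the higher side, where 11.8% stood. Since the genes were chosen on this same contrast, nothing is read from these counts.

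Within each array the enzymes and the transporters can be set against each other. The median log2 ratio of the 7 enzymes was -0.26, -0.35, -0.33 and -0.43 on arrays 1 to 4, and the mean of both transporters was 0.50, 0.43, 0.57 and 0.44. The distance between them was 0.76, 0.78, 0.90 and 0.87. On every array both transporters stood above all 7 enzymes, by the lowest transporter against the highest enzyme (0.33 against 0.31 on array 2, where they were closest). The number of enzymes below 0 was 4, 6, 7 and 7 on arrays 1 to 4.

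Bright spots were read from a second scan at low gain, and this differed between members. GAPDH, ALDOA and SLC2A1 used the low-gain scan in both channels on all 4 arrays, HK2, PFKM and SLC2A3 in neither, and TPI1, PGK1 and LDHA in Cy5 only. The median log2 ratio was -0.04 over the 933 probes with the low-gain scan in Cy5 only, 0.05 over the 917 with it in both, and -0.02 over the 21927 probes well above background with it in neither. Every probe of the 9 genes was called well above background in each of the 8 channels, and none of their spots was saturated or marked as an outlier. The part of the scan gain in the single values was not tested.

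Markers of other cell types were read as values beside those of the transporters and enzymes. Beside their counts stand the 24.0% of all named genes that passed the test and the 11.8% that rose. Of the markers of motile ciliated cells, 2 of 6 with a probe rose in parthenotes, and the summed signal of the list was 195.9 to 467.9 in the parthenote pools and 109.0 to 183.6 in the fertilised pools. FOXJ1, which defines that cell type, was not well above background. Of the secretory markers of oviduct and uterus, 3 of 5 rose, with summed signals of 8593 to 32750 against 4535 to 8182. ESR1 of that list was not well above background, and WFDC2 had a log2 ratio of 0.01 ± 1.04. Of the stromal and smooth muscle markers, 1 of 9 rose (3660 to 5070 against 2340 to 3216), with COL1A1, ACTA2 and MYH11 not well above background. That 1 of 9 is near the 11.8% of all named genes that rose, so nothing is read from it. Of the leukocyte markers, 2 of 5 rose (343.2 to 369.6 against 220.5 to 232.6), with PTPRC and CD3E not well above background, and of the erythroid markers 1 of 2 rose (170.8 to 240.1 against 52.82 to 88.36). Their part in the values of the glycolysis genes was not tested.

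Blastocyst markers were well above background in both groups. Of the 4 trophectoderm markers with a probe 1 rose, KRT8, by a log2 ratio of 0.58 ± 0.22. GATA3 had 0.12 ± 0.12, TFAP2C -0.31 ± 0.30 and ELF3 -0.26 ± 0.13, none past the threshold. The median log2 ratio of the list was -0.07, while its signals summed to 21580 to 30310 in the parthenote pools and 17640 to 19550 in the fertilised pools. Of the 2 epiblast markers POU5F1 rose, by a log2 ratio of 0.21 ± 0.03 (n = 4). LIN28A, the other, had -0.22 ± 0.15 and did not pass the test, and the median of both was -0.01. The only primitive endoderm marker with a probe, GATA4, did not pass the test. All of these counts are from the limma fit with Benjamini-Hochberg adjustment over all probes.

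Of 23 further enzymes in the list 17 had a probe, and 2 of them fell, 2 rose and 13 did not pass the test in the limma fit (adjusted p under 0.05, Benjamini-Hochberg over all probes). A count of 4 of 17 is near the 24.0% of all named genes that passed, so nothing particular to the pathway is read from it. The median log2 ratio of the 17 was -0.07, beside 0.0 over all named genes. The count was 2, 1 and 0 without array 2, 3 and 4 (5 enzymes at an unadjusted p under 0.05 in the last), and 8 both with only the probes well above background and with the ratio of the processed signals.

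GPI, which turns glucose 6-phosphate into fructose 6-phosphate, rose by 0.26 ± 0.05 (n = 4, limma adjusted p = 0.0159), and its mean was -0.51 after normexp with median centring. BPGM, which makes bisphosphoglycerate in red cells, rose by 0.87 ± 0.18 (n = 4, limma adjusted p = 0.0163), with signals of 2607 to 3076 in the parthenote pools and 1453 to 1715 in the fertilised pools and all 4 of its probes past the threshold, but it had 0.20 after normexp with median centring (limma adjusted p = 0.0671). GAPDHS, the sperm-type form of GAPDH, fell by 0.54 ± 0.10 (n = 4, limma adjusted p = 0.0147) at signals of 106.6 to 204.6, and whether its probe also reads GAPDH was not tested. ENO2, the neuronal enolase, fell by 0.26 ± 0.05 (n = 4, limma adjusted p = 0.0129). The ENO2 signals of both groups overlapped, at 1613 to 3430 in the parthenote and 2014 to 4039 in the fertilised pools, and the limma adjusted p was 0.569 when the channels were fitted without the array as a block. GPI did not pass with any 1 array left out, GAPDHS and BPGM without array 1, 3 or 4, and ENO2 without array 2 or 4 (limma adjusted p of 0.0524 to 0.0913).

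Among the enzymes that did not pass the test, several stood for steps with a member in the set. PFKP, the platelet phosphofructokinase, had a log2 ratio of -0.65 ± 0.35 (n = 4, limma adjusted p = 0.0809), below 0 on all 4 arrays and over all 5 probes. LDHB, the heart form subunit of lactate dehydrogenase, was bright and had -0.25 ± 0.14 (n = 4, limma adjusted p = 0.0872), with array 1 at -0.04. PGK2, the testis form of phosphoglycerate kinase, had -0.26 ± 0.13 and ALDOC 0.73 ± 0.61 (n = 4 each). ENO3, the muscle enolase, had 0.70 ± 0.37 at signals of at most 66.74.

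The final ATP-making step lay near 0. PKM, the pyruvate kinase of most tissues, had a log2 ratio of -0.07 ± 0.06 (n = 4, limma adjusted p = 0.178) at signals of 10750 and more, and PGAM1, the phosphoglycerate mutase, had 0.06 ± 0.05 (n = 4, limma adjusted p = 0.179). Of the glucose-phosphorylating enzymes, HK3 had -0.18 ± 0.49, HKDC1 0.05 ± 0.28 and the ADP-dependent ADPGK -0.08 ± 0.04 (n = 4 each), none past the threshold. PKLR, known from liver, did not pass the test either, and it was well above background in 1 array of each group only.

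**Figure D3:**
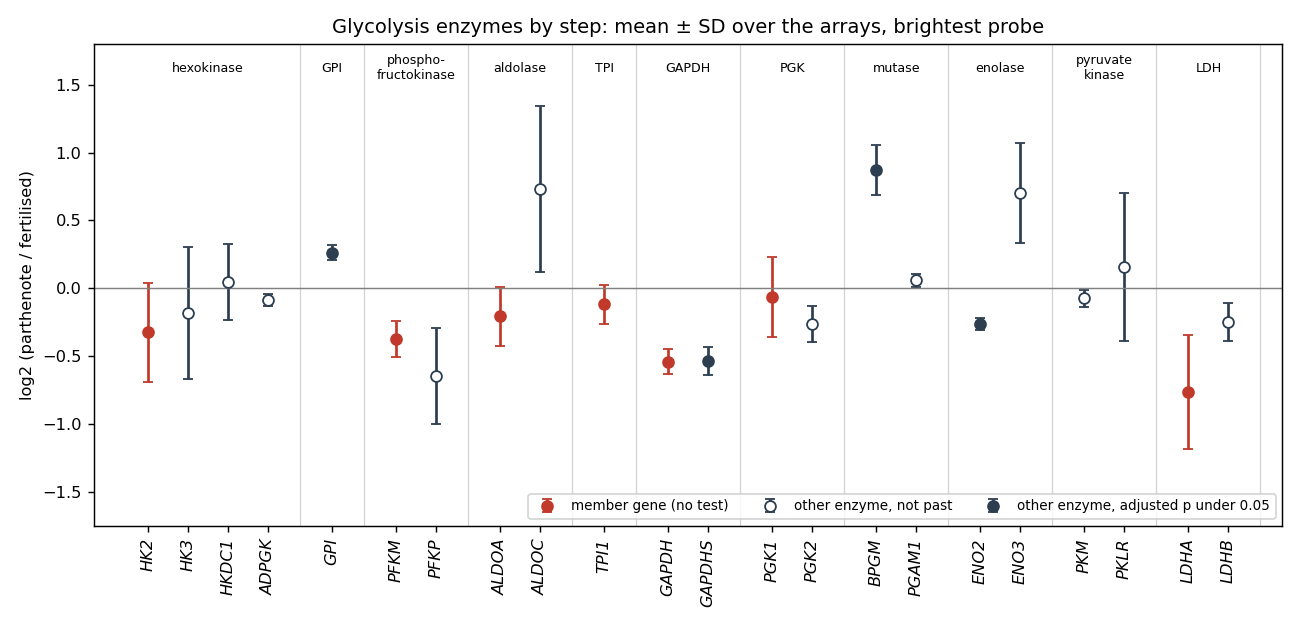
The mean log2 ratio ± SD over the 4 arrays (vertical axis) is plotted for the enzymes reported singly, ordered by step of the pathway, with the set's own genes in red and other enzymes filled where the adjusted p was under 0.05. GPI and BPGM lie above 0 (GPI below it after normexp with median centring), GAPDHS and ENO2 below, and PKM and PGAM1 next to 0.

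Of 20 further carriers of sugars, pyruvate and lactate 12 had a probe, and in the limma fit 4 rose, none fell and 8 did not pass the test, while 5 of the 12 had an unadjusted p under 0.05. Beside these 4 of 12 stand the 24.0% of all named genes that passed and the 11.8% that rose. The median log2 ratio of the 12 was -0.03. SLC16A7, the monocarboxylate transporter MCT2, which has a high affinity for pyruvate and lactate, rose by 2.21 ± 0.41 (n = 4, limma adjusted p = 0.0141), which is 4.62-fold, from 257.7 to 399.4 in the fertilised pools to 1095 to 2285 in the parthenote pools. EMB and BSG encode embigin and basigin, the partner proteins that carry monocarboxylate transporters to the membrane. EMB rose by 1.12 ± 0.06 (n = 4, limma adjusted p = 0.00428) at low signals of 16.89 to 55.21, with 2.00 for its other probe and 0.29 after normexp with loess (limma adjusted p = 0.0560), and BSG by 0.36 ± 0.05 (n = 4, limma adjusted p = 0.0103) at signals of 20810 to 30430, though the BSG mean was -0.51 after normexp with median centring.

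SLC2A8, the intracellular glucose transporter GLUT8 known from blastocysts and testis, rose by 0.70 ± 0.12 (n = 4, limma adjusted p = 0.0121), and had 0.08 after normexp with median centring (limma adjusted p = 0.435). SLC16A1, the widespread monocarboxylate transporter MCT1, had 0.07 ± 0.17, and the sodium-coupled glucose carrier SLC5A1 had -0.49 ± 0.21 (n = 4, limma adjusted p = 0.0518), with its 5 probes between -0.49 and 0.64. SLC2A4, the insulin-responsive GLUT4, had -0.18 ± 0.44. SLC2A2, SLC2A5 and SLC2A9 were not well above background in either group. The count of carriers past the threshold was 2 without array 2, 2 without array 3 and 2 without array 4. SLC16A7 did not pass without array 2, 3 or 4, BSG without array 2 or 3, and SLC2A8 without array 4 (limma adjusted p of 0.0546 to 0.0732).

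Of 18 listed regulators of glycolysis and subunits of pyruvate dehydrogenase 15 had a probe. Of these 5 rose, PDK4 among them, 1 fell and 9 did not pass the test. Beside them stand the 24.0% of all named genes that passed, 11.8% higher and 12.2% lower. The median log2 ratio of the 15 was 0.22. TXNIP, which lowers glucose uptake by binding glucose transporters, rose by 1.57 ± 0.29 (n = 4, limma adjusted p = 0.0137), which is 2.96-fold, with signals of 146.7 to 194.8 against 49.20 to 64.76. The other of its 2 probes also passed, with a mean of 0.96. The brightest TXNIP probe had 0.84 after normexp with loess and 0.64 after normexp with median centring. PDK3, a kinase that switches pyruvate dehydrogenase off, rose by 0.75 ± 0.13 (n = 4, limma adjusted p = 0.0131; 0.12 and 0.249 after normexp with median centring), and TIGAR, a phosphatase that lowers the activator of phosphofructokinase, by 0.61 ± 0.21 (n = 4, limma adjusted p = 0.0345). PDK4 also passed the test by its brightest probe, but that probe was not well above background on any array, so no fold is given. Only 1 of 4 PDK4 probes passed. PDK4 did not pass after normexp with loess (limma adjusted p = 0.0738) or by the mean of its probes (limma adjusted p = 0.0545). PDP2, a phosphatase that switches pyruvate dehydrogenase back on, passed the test as lower in parthenotes (limma adjusted p = 0.00583). It was not well above background in any parthenote pool, and it was above it in 2 of the 4 fertilised pools. Its fold was 1.21 by the channel values after normexp with loess on a repaired local background. That fold is no lower bound, because its parthenote values are PDP2's own, close to background. PDP2 did not pass after normexp with loess (-0.22, limma adjusted p = 0.0635) or median centring (-0.04, limma adjusted p = 0.751). The count was 2, 2 and 1 without array 2, 3 and 4. TXNIP did not pass without array 2 or 4, PDK3 without array 3 or 4, and TIGAR with any 1 array left out (limma adjusted p of 0.0605 to 0.127).

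**Figure D4:**
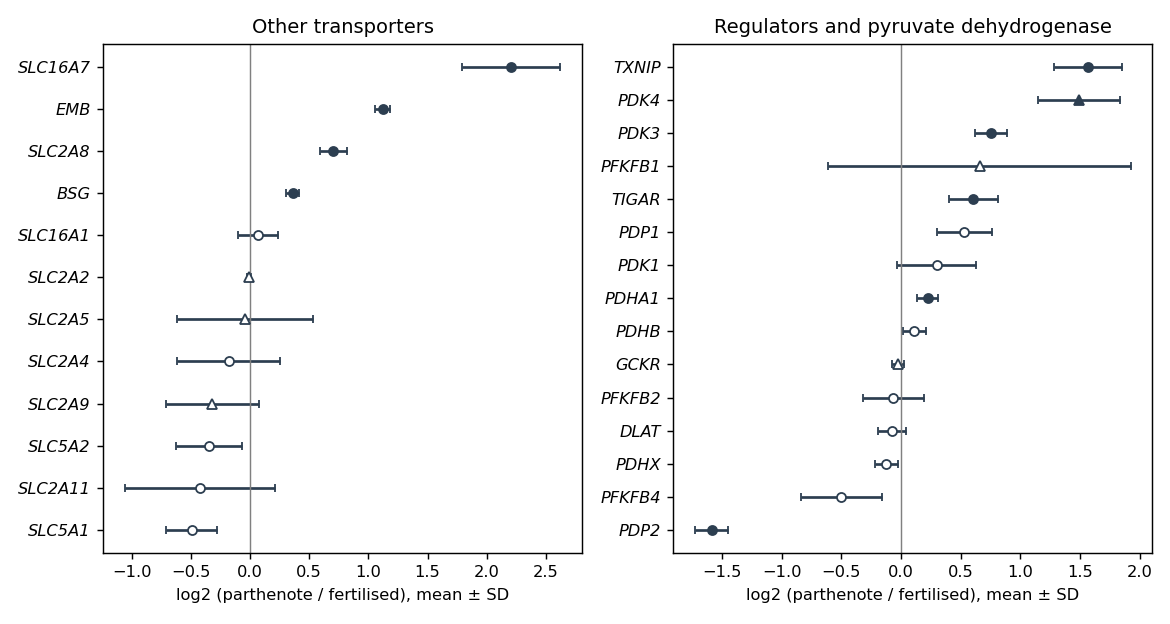
The mean log2 ratio ± SD over the arrays (horizontal axis) is plotted for the other carriers (left) and for regulators and pyruvate dehydrogenase subunits (right), filled where the adjusted p was under 0.05 and as triangles where the probe was not well above background in either group. SLC16A7, EMB, SLC2A8 and BSG stand apart to the right in the left panel (BSG turns below 0 after normexp with median centring).

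Of 32 enzymes of gluconeogenesis, the pentose phosphate pathway and glycogen 25 had a probe, and 5 fell, 3 rose and 17 did not pass the test, with a median log2 ratio of -0.04. These 8 of 25 stand beside 24.0% of all named genes that passed, 12.2% lower and 11.8% higher. FBP1, the fructose bisphosphatase that reverses the phosphofructokinase step, fell by 1.08 ± 0.18 (n = 4, limma adjusted p = 0.0122), from 2473 to 2700 in the fertilised pools to 1133 to 1410 in the parthenote pools. GPD1, which draws triose phosphate towards glycerol lipids, fell by 0.56 ± 0.10 (n = 4, limma adjusted p = 0.0134), and RPE, PGM2 and TKT, which handle pentose phosphates, fell by 0.36 ± 0.06, 0.31 ± 0.04 and 0.29 ± 0.10 (n = 4 each, limma adjusted p = 0.0122, 0.00858 and 0.0332). Only 1 of 2 GPD1 probes passed, at low signals of 55.58 to 102.8, and the other had a mean of -0.26. The count was 5, 1, 2 and 0 without array 1, 2, 3 and 4 (10 enzymes at an unadjusted p under 0.05 in the last). FBP1, GPD1 and RPE did not pass without array 2, 3 or 4, PGM2 without array 4, and TKT with any 1 array left out (limma adjusted p of 0.0513 to 0.127).

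Hypoxia-inducible factors switch on many glycolysis genes, and of 16 of the factors, their regulators and known targets 13 had a probe. Of these 3 rose, 1 fell and 9 did not pass the test, with a median log2 ratio of 0.13. These 4 of 13 stand beside 24.0% of all named genes that passed, 11.8% higher and 12.2% lower. NDRG1, ARNT and HIF1A rose by 0.75 ± 0.30, 0.36 ± 0.15 and 0.21 ± 0.06, and MYC, a further activator of glycolysis genes, fell by 0.15 ± 0.05 (n = 4 each, limma adjusted p = 0.0441, 0.0478, 0.0289 and 0.0385). Only 1 of 4 ARNT probes and 1 of 3 HIF1A probes passed, against 6 of 7 for MYC. NDRG1 had 1 probe, at low signals of 21.38 to 48.34. NDRG1 and MYC did not pass with any 1 array left out, ARNT without array 2, 3 or 4, and HIF1A without array 1, 2 or 3 (limma adjusted p of 0.0718 to 0.177). The means of ARNT and HIF1A were -0.11 and -0.31 after normexp with median centring. The count was 1, 0, 1 and 1 without array 1, 2, 3 and 4, and 0 after normexp with loess (limma, 6 genes at an unadjusted p under 0.05).

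Likeness to GAPDH was taken as Pearson's r of the log2 processed signal over the 8 channels, each centred on its median, across the 7317 other named genes well above background. It is a description, since the channels share arrays and dyes. The channels of both groups are joined in it, and GAPDH was chosen for its lower log2 ratio. Each r therefore also carries the gene's own difference between the groups and is not read as shared regulation with GAPDH. The highest values belonged to CPSF6 (0.997), KICS2 (0.991), ITGB7 (0.991), GART (0.988) and TMEM97 (0.988), whose mean log2 ratios were -0.46, -0.24, -0.48, -0.36 and -0.58. Of the set, PFKM had the highest r at 0.930 (rank 426), then LDHA at 0.883 (rank 780), ALDOA at 0.736 and TPI1 at 0.564. HK2 and PGK1 had 0.334 and 0.283. SLC2A1 and SLC2A3 had -0.929 and -0.954, and BPGM was at -0.988.

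**Figure D5:**
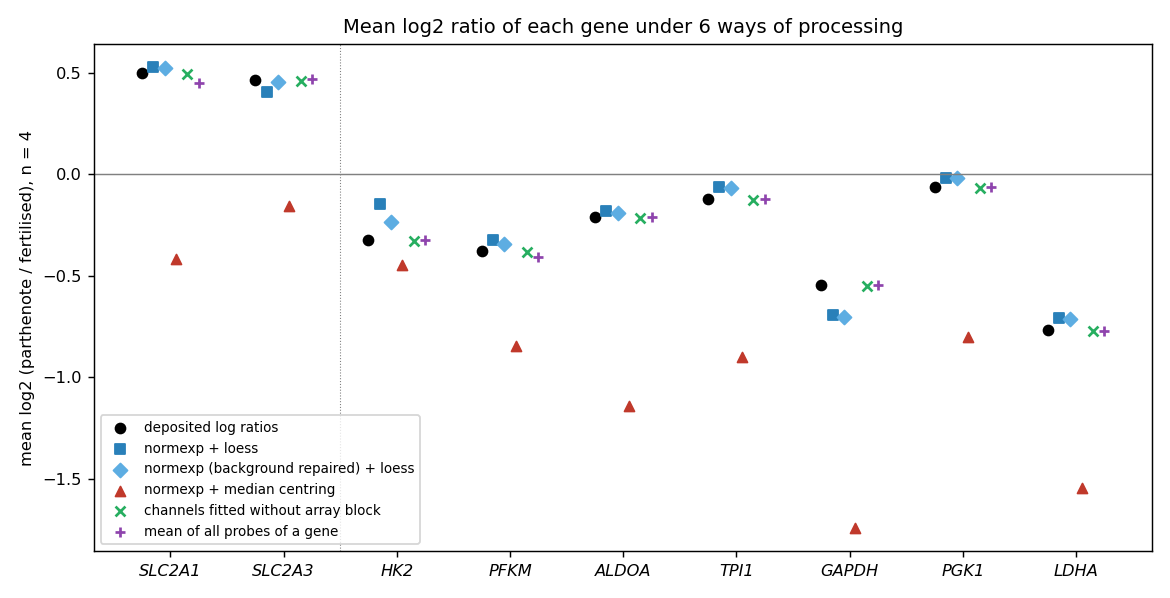
The mean log2 ratio (n = 4 arrays, vertical axis) of each of the 9 genes is plotted under 6 ways of processing the same arrays. GAPDH is -0.54 on the deposited ratios and -0.69 after normexp with loess, while median centring without loess lowers the bright genes and takes SLC2A1 and SLC2A3 below 0.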

How the data were processed

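RNA of pooled day 6 blastocysts (150 ng per labelling) was hybridised by the authors to 4 arrays of a rabbit 60-mer design on 1 slide, scanned and read with Agilent Feature Extraction 10.10.1.1. The deposited values were, per the file headers, the log10 ratio of Cy5 over Cy3 after the scanner software's background and dye correction, and the processed signal intensity of each channel, in which bright spots came from a low-gain scan. The series' deposited value table held the same log10 ratios with the sign turned (Cy3 over Cy5).

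The log10 ratios were turned to log2 of parthenote over fertilised. The scanner's control features were dropped, its outlier marks were treated as missing values, and replicate spots were averaged by probe. A limma 3.58.1 fit (lmFit and eBayes, R 4.3.3) tested each probe that had 3 or more arrays against 0, with Benjamini-Hochberg adjustment over 43595 probes and a threshold of 0.05. The code was tested on simulated data, where 14 of 50 changes of 1.5-fold and 31 of 50 of 5-fold were recovered. Few probes were changed there, so these shares do not carry over to the arrays. The p-values measure only the spread between these pools, whose precision is set by how few arrays there are.

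Probes were named from the files and the RefSeq table of rabbit genes (22007 of 43603), and a gene was given by its brightest probe over both channels. The members and lists were chosen with earlier results of these data known. Named were all members, without a p since they were chosen on this contrast, every other glycolysis enzyme with a probe (a few items are not reported here, though list counts and medians include them), and of the other lists the genes past the threshold, at most 5 by size, and the 5 genes most like GAPDH. Other genes are named with values where a carrier or marker was singled out after its values were seen. Both channels of an array deviated together (r of 0.60 to 0.65 on the same array). Alternatives were normexp (offset 50) with loess or median centring, the ratio of processed signals, the value table, filters on dim, saturated and marked spots, the channels without the array as a block, the methods' t-test, a trended robust fit, each array left out, and the mean of a gene's probes. A repair of the local background before normexp was added after seeing the data.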

Additional observations from a re-analysis of the deposited data

Results flagged for a closer look

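In each of 41 genes above background the array farthest from the other 3 was examined by Dixon's ratio, which chance exceeds in about 1 of 20 groups, and 9 genes exceeded it. In 5 of the 9 it was array 1. Among the glycolysis set these were LDHA, with a log2 ratio of -1.40 on array 1 against -0.57 to -0.53 on the others, and ALDOA, with 0.12 on array 1 against -0.35 to -0.29. LDHB stood at -0.037 on array 1 against -0.33 to -0.30, FBP1 at -0.81 against -1.19 to -1.13 and ARNT at 0.14 against 0.40 to 0.45. HK3 was at 0.54 on array 2 against -0.51 to -0.35, and PDK3 at 0.95 on array 2 against 0.66 to 0.70. BSG was at 0.28 on array 4 against 0.38 to 0.39, and HIF1A at 0.31 on array 4 against 0.17 to 0.19. The causes were not tested.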

How the results depend on the processing

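The main count was 8996 of 43595 probes past the threshold. It was 30990 after normexp with median centring, 21399 with the ratio of processed signals (65.0% of them higher in parthenotes, against 46.2%), 4435 under the methods' t-test, and 1239 to 5736 with 1 array left out. Without the replicate block, with the channels fitted as separate samples, it was 19295 (65.9% higher), and no list count moved by over 1.5 times. The median log2 ratio of the 9 members was -0.85 after normexp with median centring, against -0.21, and -0.32 to -0.16 with 1 array left out. That setting reversed SLC2A1 (-0.42), SLC2A3 (-0.16), GPI (-0.51), BSG (-0.51), ARNT (-0.11), HIF1A (-0.31), HKDC1 (-0.26) and PGAM1 (-0.67). It ended the calls of BPGM (0.20), SLC2A8 (0.08), PDK3 (0.12) and PDP2 (-0.04). It gave 13 other glycolysis enzymes past the threshold (11 lower and 2 higher), 8 carriers (3 and 5), 21 enzymes of the gluconeogenesis list (20 and 1) and 11 genes of the hypoxia list (9 and 2), while the median of the 917 bright probes stood at -1.11.

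The other glycolysis enzymes numbered 8 with the repaired local background, 8 with the ratio of processed signals and 8 with the dim-probe filter, which tested fewer probes. The gluconeogenesis list numbered 4 under the methods' t-test and 5 in the trended robust fit, and the hypoxia list 0 after normexp with loess (6 at an unadjusted p under 0.05), 0 under the methods' t-test (7 unadjusted) and 2 in the trended robust fit. With 1 array left out the counts were 0 to 4 for other enzymes, 2 to 4 for carriers, 1 to 5 for regulators, 0 to 5 for the gluconeogenesis list and 0 to 1 for the hypoxia list. Where these were 0, 4 to 10 genes had an unadjusted p under 0.05 in limma. Of the 22 named genes outside the set that passed, EMB and PDP2 passed without each array in turn and 20 did not, but neither EMB (0.29) nor PDP2 (-0.22) passed after normexp with loess. No member with a call changed sign other than SLC2A1 and SLC2A3, and PGK1 moved to 0.05 without array 1. The causes were not tested. Signals close to background, as for PDK4 and PDP2, limit the folds given.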
